A study of Mus musculus with 6 samples.

Results

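Tryptophan breakdown and the FOXO transcription factors were followed through 9 of the 23284 genes listed for each library, in green fluorescent cells sorted from the mouse skull vault. They were taken by name: Ido1, Ido2 and Tdo2, which start the breakdown of tryptophan, Kmo and Kynu, which carry it further, Ahr, which encodes a receptor for its products, and Foxo1, Foxo3 and Foxo4. The libraries came from CX3CR1-EGFP mice, in which EGFP reports the locus of the fractalkine receptor and so labels monocytes and precursors of bone-resorbing osteoclasts. All mice had received lipopolysaccharide (LPS), a bacterial wall component that provokes inflammation, into the calvarial periosteum. One group received 10 mg/kg CTLA4-Ig (abatacept) with it, a fusion protein of CTLA-4 and antibody Fc that binds CD80 and CD86, and the control group received 10 mg/kg whole human IgG. Sorting of EGFP+ cells followed after 5 days, and each group had 3 libraries. The sample titles call each library a biological replicate. The labels do not state strain, age, sex, LPS dose or which animals each library came from. The p-values therefore measure the spread between libraries so labelled, and how much of that spread lies between animals or is technical is not known.

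The enzymes IDO1, IDO2 and TDO2 open the ring of tryptophan, and the product becomes kynurenine. KMO and KYNU then act in turn on kynurenine on the way to quinolinic acid and NAD, while kynurenine and its derivatives can activate AHR, a transcription factor that senses small aromatic molecules. FOXO factors are held out of the nucleus when the kinase AKT phosphorylates them. In mouse dendritic cells, binding of CTLA4-Ig to CD80 and CD86 is known to send a signal back into the cell that can raise IDO1, with a FOXO factor among the proteins implicated.

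Among the 9 genes, those that start tryptophan breakdown were at or near 0 and those of later steps were not. By mean FPKM (fragments scaled for transcript length and library size, so that levels of different genes can be set side by side), the order was Kmo at 14.6, Foxo3 at 13.5, Foxo4 at 12.95, Ahr at 3.204, Foxo1 at 2.85, Kynu at 2.82, Ido1 at 0.119, and Ido2 and Tdo2 at 0. The ranges of Kmo, Foxo3 and Foxo4 over the 6 libraries overlapped, as did those of Ahr, Foxo1 and Kynu. No value of the first trio of genes lay as low as any of the second.

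Promoters of 4 of the 9 genes were in the RefSeq table (GRCm38.p6) and are shown because their base composition divides as the levels of the genes do not. Each window runs from 250 bases before to 50 bases after the start of transcription, 5′ to 3′ on the gene's own strand, with each CG dinucleotide in capitals. Kmo lies at chr1:175631943-175632242 (+ strand), Tdo2 at chr3:81975679-81975978 (- strand), Foxo1 at chr3:52268087-52268386 (+ strand) and Foxo3 at chr10:42276646-42276945 (- strand).
Kmo: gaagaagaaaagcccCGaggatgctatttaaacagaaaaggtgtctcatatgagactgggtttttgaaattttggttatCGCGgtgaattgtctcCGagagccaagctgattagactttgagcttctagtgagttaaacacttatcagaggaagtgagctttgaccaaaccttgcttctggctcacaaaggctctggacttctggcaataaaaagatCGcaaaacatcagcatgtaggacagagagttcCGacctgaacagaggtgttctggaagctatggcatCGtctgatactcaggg
Tdo2: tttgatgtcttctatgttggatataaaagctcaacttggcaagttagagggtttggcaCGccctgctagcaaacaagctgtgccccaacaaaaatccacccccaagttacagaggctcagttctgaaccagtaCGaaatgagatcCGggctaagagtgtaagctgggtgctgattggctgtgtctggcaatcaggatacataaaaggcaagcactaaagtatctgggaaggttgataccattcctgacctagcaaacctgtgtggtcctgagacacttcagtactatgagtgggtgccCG
Foxo1: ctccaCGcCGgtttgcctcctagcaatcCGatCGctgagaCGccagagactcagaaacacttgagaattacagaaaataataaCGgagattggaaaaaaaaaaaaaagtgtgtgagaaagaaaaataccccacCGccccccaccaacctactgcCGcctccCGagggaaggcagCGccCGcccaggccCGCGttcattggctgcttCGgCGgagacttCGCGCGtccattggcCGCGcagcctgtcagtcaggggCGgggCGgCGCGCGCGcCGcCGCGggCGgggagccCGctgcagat
Foxo3: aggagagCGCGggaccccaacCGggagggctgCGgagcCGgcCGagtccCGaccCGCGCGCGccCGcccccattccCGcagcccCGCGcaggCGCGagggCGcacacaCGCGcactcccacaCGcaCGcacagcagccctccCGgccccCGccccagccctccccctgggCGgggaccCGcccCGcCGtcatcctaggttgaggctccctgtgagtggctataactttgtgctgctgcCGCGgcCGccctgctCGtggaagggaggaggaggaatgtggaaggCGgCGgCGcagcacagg
The windows of the FOXO genes held 31 CG dinucleotides in Foxo1 and 35 in Foxo3, and those of the enzymes 7 in Kmo and 4 in Tdo2. Over all 32851 windows of the table the median was 7 and the quartiles 3 and 20. Kmo, at 14.6 FPKM, thus had a window with the median number of CG dinucleotides, while Foxo1, at 2.85 FPKM, had one with more than the upper quartile. On either strand, these 4 windows held no match to the interferon-stimulated response element (bound by interferon regulatory factors, in 3.44% of all windows), TGTTTAC (FOXO, in 3.65%) or TNGCGTG (AHR with ARNT, in 5.06%). The windows of Ido1, Ido2, Kynu, Ahr and Foxo4 are not shown.

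Control library 1 stood apart from the rest. In 337 of 10865 genes tested (3.10%) it lay more than 0.5 beyond the range of the other 5 libraries on the log2(FPKM + 1) scale, against 0.23 to 0.479% in each of the others. Where leaving it out turned the sign of a log2 difference given below for a gene, the value without it stands beside it. No log2 difference is given for Cx3cr1, for cell type markers or for the genes nearest in profile, and their dependence on it is not reported here. Cx3cr1, whose locus drives the reporter, was at 24.1, 16.6 and 26.5 FPKM with CTLA4-Ig, against 12.3, 23.8 and 32.5 in control libraries. The summed FPKM of 11 neutrophil markers, led by S100a8 and S100a9, ranged between 172400 and 238300 in CTLA4-Ig libraries and between 133400 and 152300 in control libraries. That of 10 monocyte and macrophage markers, led by Ly6c2 and F13a1, ranged between 3283 and 3610 in CTLA4-Ig libraries and between 3583 and 3841 in control libraries. No marker of those lists was at 0 in any library. Their part in the differences given here was not tested, and in bulk RNA fewer cells of a type and less RNA per cell cannot be told apart. The summed markers of other cells reached at most 73.4 FPKM for conventional dendritic cells (Flt3 and Clec10a highest), 24.6 for the B lineage (Cd79b and Cd79a), 17.0 for T cells (Lck and Cd8a), 38.3 for natural killer cells (Gzma and Gzmb), 48.1 for erythroid cells (Hba-a1 and Klf1) and 30.9 for osteoclasts (Acp5 and Ctsk). Eosinophil, basophil and mast cell markers (Prg2 and Mcpt8 highest) reached 1222 FPKM, and the ranges of the groups overlapped in each of these lists and in that of monocytes and macrophages.

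Setting CTLA4-Ig against control IgG asks whether any of these genes differ when CD80 and CD86 are bound. No member passed limma's test on log2(FPKM + 1): of the 10865 genes that averaged 1 FPKM or more, 0 (0%) had a Benjamini-Hochberg adjusted p under 0.05, with 659 (6.07%) at an unadjusted p under 0.05. Of the 9 members 6 passed that filter and were tested, and Ido1, Ido2 and Tdo2 did not. Fold changes on this scale understate those of low genes.

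**Figure D1:**
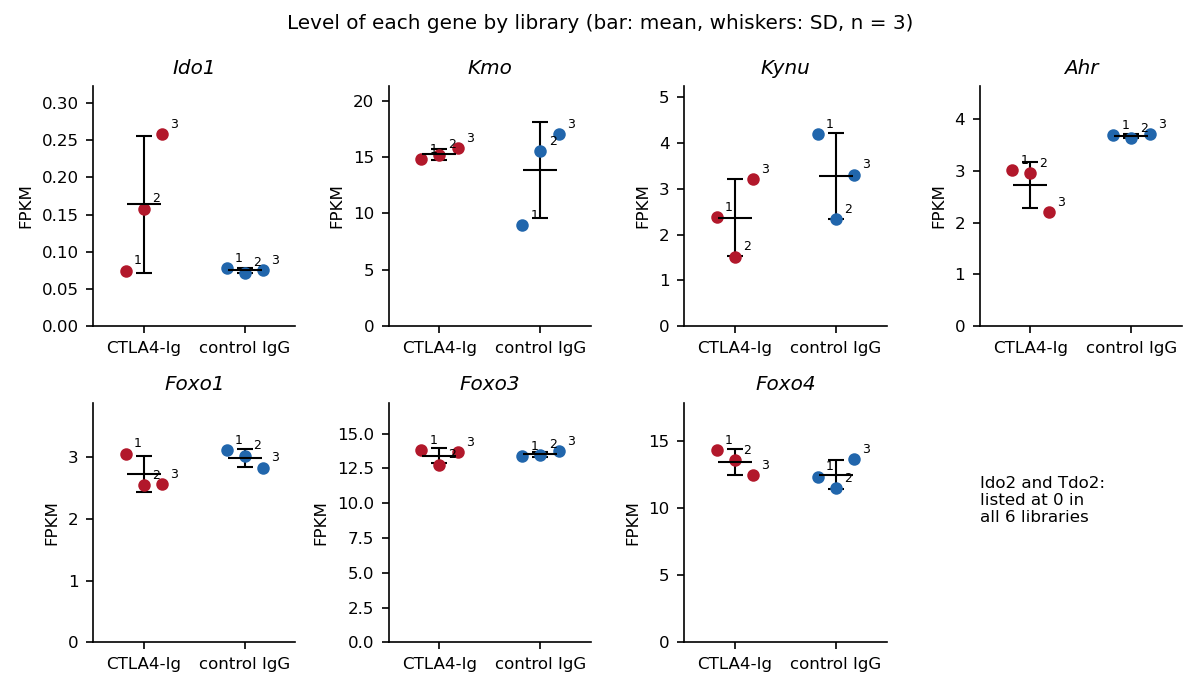
FPKM of each gene (y axis, from 0) in the 3 CTLA4-Ig and the 3 control IgG libraries, with the library number beside each point, the mean as a bar and the SD as whiskers. The groups overlap in every panel but that of Ahr, where the CTLA4-Ig libraries reach 3.01 FPKM and the control libraries start at 3.64, and control library 1 is low for Kmo, at 8.99 FPKM.

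The genes that start the pathway gave almost no signal. Ido1, the interferon-induced dioxygenase of myeloid cells (chromosome 8, 24584133 to 24596952, GRCm38), was at 0.0743, 0.158 and 0.259 FPKM with CTLA4-Ig, against 0.0779, 0.0717 and 0.0748 in control libraries. After scaling by the depth of each library relative to the others, as read from the spacing of low values, these were 1, 2 and 4 times the value of control library 1 in the CTLA4-Ig libraries and 1 time in each control library, whole multiples within 0.01. Such steps are what single fragments give, but the files hold no counts. CTLA4-Ig libraries 2 and 3 were higher than the rest, and library 1 lay among the controls. The difference was 0.11 on the log2(FPKM + 1) scale (exact permutation test, two-sided, p = 0.3), in a design where the smallest p that 3 against 3 allow is 0.1 and no value could pass 0.05. The gene overlaps the noncoding Gm51565, and its reads could be shared with it.

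Ido2, the related enzyme of lower activity, lies 7718 bases from Ido1 with 0 annotated genes between them (chromosome 8, 24531892 to 24576414). It was listed at 0 in all 6 libraries, as was Tdo2, the dioxygenase best known from liver (chromosome 3, 81958412 to 81975728). In a table without counts an exact 0 may be a failed estimate. Il4i1, a secreted enzyme that turns tryptophan into other AHR ligands, was at 0, 0 and 0.224 FPKM with CTLA4-Ig, against 0, 0.163 and 0 in control libraries.

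Kmo, the mitochondrial enzyme that hydroxylates kynurenine (chromosome 1, 175632193 to 175660853), was the highest of the 9 genes. Its level was 14.8, 15.2 and 15.8 FPKM with CTLA4-Ig, against 8.99, 15.5 and 17.1 in control libraries. The CTLA4-Ig libraries were close together, and control library 1 was far under the other 5, which ran from 14.8 to 17.1. The log2 difference was 0.18 ± 0.21 (SE; limma, Benjamini-Hochberg adjusted p = 0.928), with a 95% interval of -0.33 to 0.68. Without control library 1 it was -0.0866 (limma, adjusted p = 0.793), so its direction rested on that library.

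The genes nearest to Kmo in profile, by the root mean square distance of log2 values centred on their means over the 6 libraries, were Fam55d (0.0284), Zfpm1, a partner of GATA factors (0.0386), and Pml, an interferon-induced gene of nuclear bodies (0.0406). The deviation of Kmo from its own mean was 0.282 on the same scale. Pml was at 13.1, 12.9 and 12.6 FPKM with CTLA4-Ig, against 7.59, 12.9 and 14.3 in control libraries. Its low value in control library 1 follows from its choice by likeness to Kmo. Markers of plasmacytoid dendritic cells moved with that library as well: 5 of 6 were lowest there, and their summed FPKM was 268, 216 and 243 with CTLA4-Ig, against 119, 268 and 271 in control libraries. Bst2 and Ly6d had the highest levels of these markers, and none was at 0. Other lists did so too: all 4 erythroid markers were lowest in that library, with sums of 28.3, 33.3 and 37.2 FPKM with CTLA4-Ig, against 4.57, 48.1 and 38.3 in control libraries. The same held for 6 of 8 T cell markers, whose sums were 10.8, 9.69 and 13.9 FPKM with CTLA4-Ig, against 7.75, 12.0 and 17.0 in control libraries, and for 5 of 10 of the B lineage. It also held for 5 of 11 neutrophil and 6 of 10 conventional dendritic markers, but the sum of the latter was highest in that library, at 73.4 FPKM. In the other lists it held for 1 of 10 monocyte and macrophage, 1 of 6 natural killer and 1 of 6 osteoclast markers. For eosinophils, basophils and mast cells it held for 2 of 6. Whether any of these bear on the level of Kmo was not tested.

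**Figure D2:**
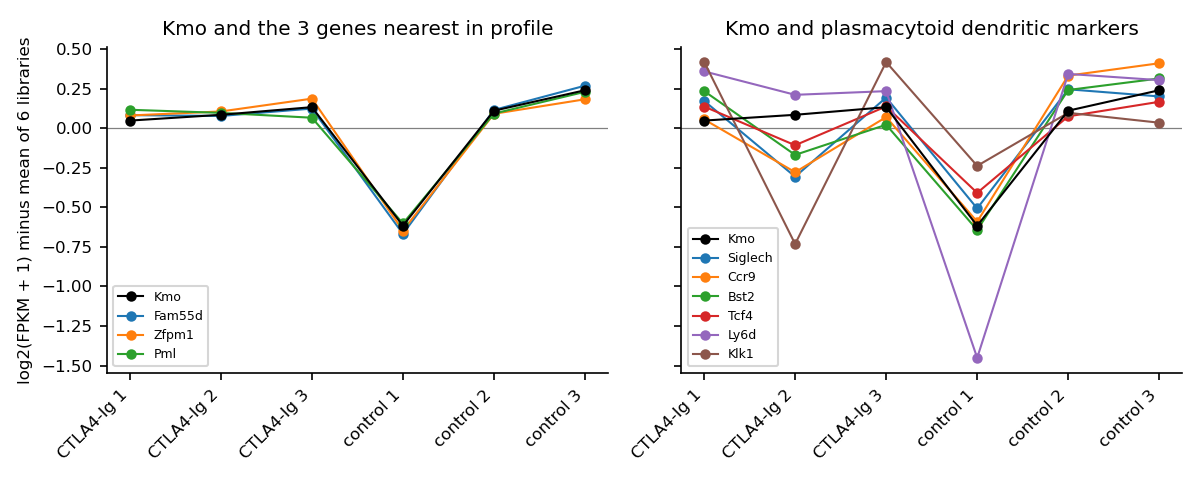
Log2(FPKM + 1) of Kmo minus its mean over the 6 libraries (y axis), beside the 3 genes nearest to it in profile (left) and beside the 6 markers of plasmacytoid dendritic cells (right), with lines joining the values of a gene across the 6 libraries (x axis). Kmo and its nearest genes are low in control library 1, as are 5 of the 6 markers at their lowest, while Klk1 is lowest in CTLA4-Ig library 2.

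Kynu, which cleaves kynurenine and its hydroxylated form (chromosome 2, 43555258 to 43683048), was lower than Kmo in every library. It stood at 2.38, 1.52 and 3.21 FPKM with CTLA4-Ig, against 4.20, 2.33 and 3.31 in control libraries. The groups overlapped, with the lowest value in CTLA4-Ig library 2 and the highest in control library 1. The log2 difference was -0.35 ± 0.23 (SE; limma, Benjamini-Hochberg adjusted p = 0.890), and its 95% interval ran from -0.91 to 0.20. Leaving out CTLA4-Ig library 2 gave -0.160, leaving out control library 1 gave -0.203 and leaving out CTLA4-Ig library 3 gave -0.531. The nearest genes in profile were Bmf, which promotes cell death (0.0964), Pdcd4, an inhibitor of translation (0.110), and 4833442J19Rik (0.114), against a deviation of 0.335 for Kynu itself.

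The other enzymes of the pathway include those that act after KYNU and aminotransferases that take kynurenine off that branch. Haao, which acts after KYNU, was at 24.4, 21.98 and 23.1 FPKM with CTLA4-Ig, against 16.4, 22.7 and 27.7 in control libraries, and like Kmo it was lowest in control library 1. Its log2 difference was 0.08, and -0.11 without that library. Qprt, which turns quinolinic acid towards NAD, was at 2.73, 1.94 and 2.47 FPKM with CTLA4-Ig, against 1.59, 4.005 and 2.55 in control libraries. Afmid, the formamidase that releases kynurenine, was at 2.97, 3.00 and 2.91 FPKM with CTLA4-Ig, against 2.82, 2.77 and 2.61 in control libraries, each CTLA4-Ig library lying slightly above each control. The groups did not overlap with CTLA4-Ig higher in 706 of 10865 genes (6.50%). Acmsd, which diverts the pathway from quinolinic acid, did not exceed 0.203 FPKM in any library, and Aadat, a kynurenine aminotransferase, was listed at 0 in all 6.

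Of these 9 other enzymes 6 were tested, 3 were positive and 3 negative, and 0 passed. Their median log2 difference was -0.0042, beside -0.0063 over all genes tested, and it was 0.103 without control library 2. Ccbl2 (Kyat3), an aminotransferase that makes kynurenic acid, had the smallest unadjusted p, at 3.83, 4.23 and 4.02 FPKM with CTLA4-Ig, against 5.77, 4.27 and 4.25 in control libraries. The groups did not overlap, but only control library 1 stood clearly higher; the log2 difference was -0.19 ± 0.12 (SE; limma, adjusted p = 0.890), and -0.0664 without that library. Its relative Ccbl1 (Kyat1) had a log2 difference of 0.18 ± 0.13, and Got2, a mitochondrial aminotransferase with the highest level of the list, -0.15 ± 0.14. Got2 was at 67.8, 67.2 and 67.6 FPKM with CTLA4-Ig, against 95.4, 64.1 and 69.2 in control libraries, and without control library 1 its difference was 0.02.

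**Figure D3:**
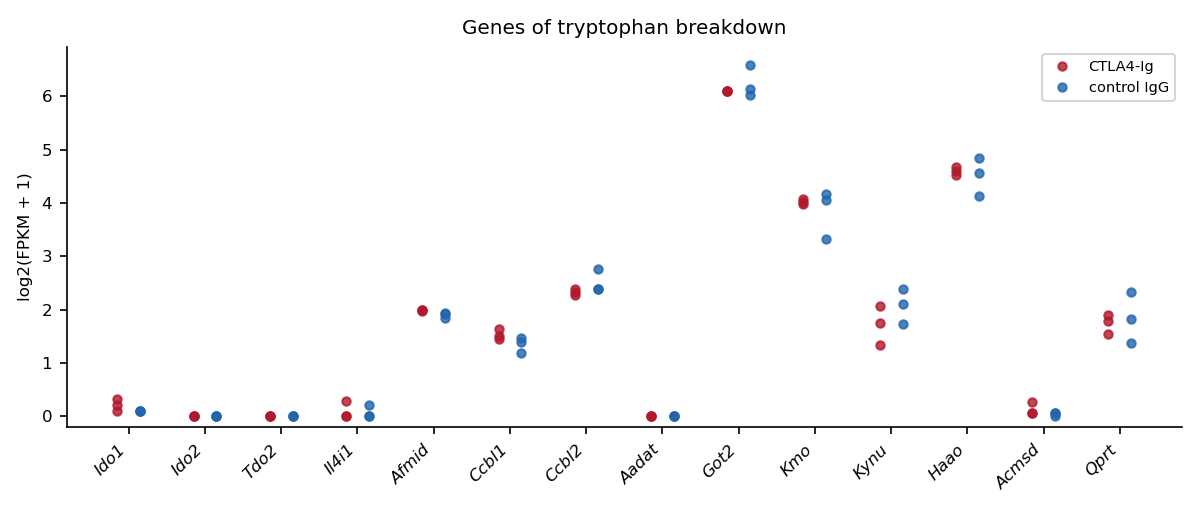
Log2(FPKM + 1) (y axis) of genes of tryptophan breakdown (x axis), with a point for each CTLA4-Ig and each control IgG library. Ido1, Ido2, Tdo2, Il4i1, Aadat and Acmsd lie at or near 0, and of the genes plotted Got2, Haao and Kmo have the highest means.

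Genes that supply, sense or use tryptophan did not pass either. Of 8 genes of tryptophan transport and use 6 were tested, with 2 positive, 4 negative and 0 called; the median was -0.060, and 0.0238 without control library 1. Slc7a5 and Slc3a2, which together form the main carrier of large neutral amino acids, had log2 differences of -0.13 ± 0.11 and 0.02 ± 0.07 (SE), and the lysosomal transporter Slc36a4 had 0.10 ± 0.08. Wars, which charges tRNA with tryptophan and is raised by interferon gamma, was at 23.0, 23.5 and 20.8 FPKM with CTLA4-Ig, against 24.7, 23.2 and 22.2 in control libraries. Of 6 genes that respond to scarce amino acids 5 were tested, with 1 positive, 4 negative, 0 called and a median of -0.024. That positive gene was Asns, which makes asparagine, at 0.25 ± 0.13 (SE; limma, adjusted p = 0.863), and Atf4, the transcription factor of this response, had -0.07 ± 0.07. Of 7 genes of NAD synthesis 6 were tested, with 3 positive, 3 negative, 0 called and a median of 0.0060; it was -0.0655 with no filter on low values.

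Nmnat1, which makes NAD in the nucleus, was at 2.69, 3.14 and 1.87 FPKM with CTLA4-Ig, against 3.24, 4.14 and 4.19 in control libraries. Its groups did not overlap, and its log2 difference was -0.46 ± 0.16 (SE; limma, unadjusted p = 0.0272, adjusted p = 0.751). Genes lower with CTLA4-Ig at an unadjusted p under 0.05 made up 1.98% of all genes tested. Nadk, which phosphorylates NAD, had the highest level of that list, 167 ± 10.0 FPKM with CTLA4-Ig, against 149 ± 13.4 in control libraries (SD, n = 3; log2 difference 0.17 ± 0.08, limma adjusted p = 0.851).

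Ahr was the member whose groups did not overlap. The gene (chromosome 12, 35497979 to 35534989) was at 3.01, 2.96 and 2.21 FPKM with CTLA4-Ig, against 3.69, 3.64 and 3.72 in control libraries. The control libraries were nearly equal, and each CTLA4-Ig library was lower, most of all library 3. The log2 difference was -0.34 ± 0.12 (SE), with a 95% interval of -0.61 to -0.06 and an unadjusted p of 0.0233, but limma's Benjamini-Hochberg adjusted p was 0.732. The groups did not overlap with CTLA4-Ig lower in 618 of 10865 genes (5.69%), and in either direction in 1324 (12.2%). No direction was set in advance, so 1 such gene of 6 members (16.7%) is read against the share in either direction. The difference was -0.233 when CTLA4-Ig library 3 was left out (limma, unadjusted p = 0.0557). It was -0.335 when control library 1 was left out (limma, unadjusted p = 0.0448). The summed neutrophil markers, of which S100a8 and S100a9 make up most, were higher in the CTLA4-Ig libraries, also without overlap. So were 9 of the 11 markers one by one, while the groups overlapped for Mmp8 and Cxcr2. Over all genes tested this was so in 6.50%, and none of these markers was called. Their part in the level of Ahr was not tested.

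The nearest genes to Ahr in profile were Atg10, an enzyme of autophagy (0.0533), Taf1a, a factor of RNA polymerase I (0.0535), and Dcdc2c (0.0546), against a deviation of 0.198 for Ahr. Atg10 was at 3.93, 3.64 and 3.23 FPKM with CTLA4-Ig, against 4.65, 4.83 and 4.75 in control libraries. Its lower values with CTLA4-Ig follow from its choice by likeness to Ahr. All these nearest genes have low levels, as Ahr does.

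Of the 5 partners that AHR binds in the cytosol or nucleus, all were tested and 0 were called, with a median log2 difference of -0.045. Hsp90ab1, the chaperone with the highest level of the list, had a log2 difference of -0.08 ± 0.10 (SE). Arnt, the DNA-binding partner of AHR, was at 16.2, 17.99 and 16.6 FPKM with CTLA4-Ig, against 20.7, 16.2 and 16.2 in control libraries, a log2 difference of -0.06, and 0.06 without control library 1.

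Genes that AHR is known to switch on were mostly near 0 in both groups. Of 7 such genes 2 passed the filter and 0 were called. Cyp1a1, the most used readout of AHR activity, was at 0.0415, 0.0441 and 0 FPKM with CTLA4-Ig, against 0.127, 0 and 0.0417 in control libraries. Cyp1b1 did not exceed 0.213 FPKM, and Ahrr, the repressor that AHR induces, stayed between 0.188 and 0.266 FPKM. Tiparp, an ADP-ribosylating enzyme that limits AHR, was at 7.89, 7.90 and 7.92 FPKM with CTLA4-Ig, against 9.44, 7.42 and 7.86 in control libraries, a log2 difference of -0.05 ± 0.09 (SE; limma, adjusted p = 0.961), and 0.04 without control library 1. Nqo1, a quinone reductase, had 0.14 ± 0.20 (SE).

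**Figure D4:**
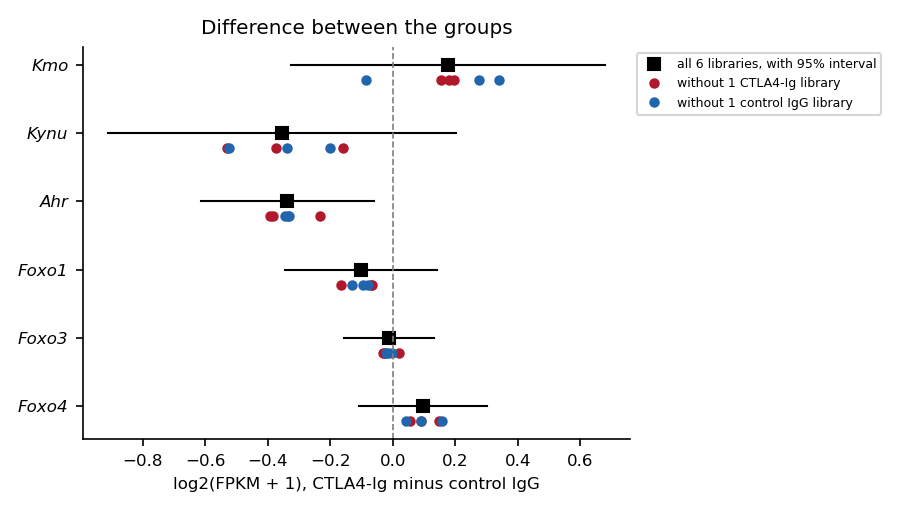
Difference of log2(FPKM + 1), CTLA4-Ig minus control IgG (x axis), for the 6 members tested, with squares and lines for the estimate and 95% interval from all 6 libraries and dots for the estimates without 1 library. The interval of Ahr ends at -0.06, the others include 0, and the dot of Kmo without control library 1 lies on the other side of 0.

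Among the 6 members tested, the FOXO genes varied least over the libraries. Foxo3 (chromosome 10, 42181845 to 42276695) was at 13.8, 12.8 and 13.6 FPKM with CTLA4-Ig, against 13.4, 13.5 and 13.7 in control libraries. The groups overlapped fully, and the log2 difference was -0.01 ± 0.06 (SE; limma, Benjamini-Hochberg adjusted p = 0.986), with a 95% interval of -0.16 to 0.13. It was 0.0195 without CTLA4-Ig library 2. The noncoding Gm38485 overlaps the gene, and its reads could be shared with it.

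Foxo4 (chromosome X, 101254261 to 101260873) was at 14.3, 13.6 and 12.4 FPKM with CTLA4-Ig, against 12.3, 11.5 and 13.6 in control libraries. CTLA4-Ig library 1 was highest and control library 2 lowest, with overlap between. The log2 difference was 0.10 ± 0.09 (SE; limma, adjusted p = 0.904), with a 95% interval of -0.11 to 0.30.

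Foxo1, the family member with broad roles in lymphocytes and in metabolism (chromosome 3, 52268337 to 52350109), was at 3.05, 2.55 and 2.56 FPKM with CTLA4-Ig, against 3.10, 3.02 and 2.83 in control libraries. CTLA4-Ig library 1 lay within the control range and the other CTLA4-Ig libraries under it. The log2 difference was -0.10 ± 0.10 (SE; limma, adjusted p = 0.914), with a 95% interval of -0.34 to 0.14.

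Together the 3 FOXO genes summed to 29.5 ± 1.37 FPKM with CTLA4-Ig, against 29.0 ± 1.12 in control libraries (SD, n = 3). Foxo1 made up 9.82, 8.82 and 8.94% of that sum with CTLA4-Ig, against 10.8, 10.8 and 9.37% in control libraries, and the rest was divided nearly evenly between Foxo3 and Foxo4. Foxo6, the member best known from brain, did not exceed 0.113 FPKM. The nearest genes in profile were Thrap3 (0.00664), Ankrd44 (0.0121) and Ddx23 (0.0151) for Foxo3, with its own deviation of 0.0343. Those for Foxo4 included Otud5 (0.0142) and Hivep1 (0.0283), with its own deviation of 0.0993. For Foxo1 they were Pitpna (0.0163), Ebp (0.0180) and Il17ra (0.0231), with 0.0865.

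The kinases, phosphatases and carriers that decide where FOXO proteins reside were expressed in both groups. Of 21 genes of that list, which also holds Foxo6, 20 were tested, with 9 positive, 11 negative and 0 called, and the median log2 difference was -0.0096. Akt1 was the highest of the 3 AKT genes, at 132, 128 and 131 FPKM with CTLA4-Ig, against 139, 119 and 130 in control libraries. Pik3cb, a catalytic subunit of PI3 kinase, was at 20.2, 25.6 and 22.2 FPKM with CTLA4-Ig, against 19.9, 19.1 and 19.4 in control libraries, a log2 difference of 0.20 ± 0.09 (SE; limma, adjusted p = 0.828). Sgk1, a kinase that phosphorylates FOXO3 much as AKT does, had 0.28 ± 0.14 (SE), and Ywhae, a 14-3-3 protein with the highest level of the list, had -0.07 ± 0.06.

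Of 23 genes known as FOXO targets, largely from work on lymphocytes and on stress, 20 were tested, with 13 positive, 7 negative and 0 called. The median was 0.045, and -0.0165 without control library 1. Gadd45a, a stress gene of growth arrest, was at 11.9, 12.8 and 14.8 FPKM with CTLA4-Ig, against 11.3, 8.27 and 10.1 in control libraries. The groups did not overlap, and the log2 difference was 0.39 ± 0.13 (SE; limma, unadjusted p = 0.0187, adjusted p = 0.722). Klf2, a factor of lymphocyte and monocyte quiescence, was at 50.9, 57.3 and 54.1 FPKM with CTLA4-Ig, against 42.9, 36.4 and 51.8 in control libraries; its groups overlapped, and the log2 difference was 0.32 ± 0.13 (SE; limma, unadjusted p = 0.0405, adjusted p = 0.793). Genes higher at an unadjusted p under 0.05 made up 4.09% of all genes tested. Pik3ip1, an inhibitor of PI3 kinase, was at 4.43, 5.23 and 9.59 FPKM with CTLA4-Ig, against 20.6, 6.17 and 6.49 in control libraries, where control library 1 stood alone. Its log2 difference was -0.57 ± 0.46 (SE), and -0.0457 without that library.

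Transcripts of the ligands that CTLA4-Ig binds were measured in every library. Cd80 was at 4.70, 5.70 and 4.09 FPKM with CTLA4-Ig, against 9.08, 5.50 and 3.65 in control libraries, and Cd86 at 8.81, 7.44 and 8.41 with CTLA4-Ig, against 9.55, 8.58 and 8.95 in control libraries. Of 5 genes of this axis 3 were tested, all 3 were negative and 0 were called; the median was -0.12, and 0.0120 without control library 1. The log2 difference of Cd80 was -0.22 ± 0.27 (SE), and 0.08 without that library. Icosl, a related ligand, had -0.03 ± 0.08 (SE), and 0.01 without it. Of 22 genes of interferon, NF-kappaB and TGF-beta signalling 21 were tested, with 12 positive, 9 negative and 0 called; the median was 0.013, and -0.0569 without control library 1. Ifngr1, a chain of the interferon gamma receptor, was at 179, 168 and 192 FPKM with CTLA4-Ig, against 203, 186 and 193 in control libraries, with overlap and a log2 difference of -0.11 ± 0.07 (SE). Irf1, which interferon gamma induces, had 0.13 ± 0.08 (SE). Ifng itself did not exceed 0.504 FPKM in any library. Socs3, a feedback inhibitor that also marks IDO1 for breakdown, was at 4.62, 5.87 and 5.57 FPKM with CTLA4-Ig, against 23.5, 2.23 and 5.61 in control libraries, so control library 1 was far above the other 5. Its log2 difference was -0.35 ± 0.66 (SE), and 0.46 without that library (limma, adjusted p = 0.741).

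Over the 10 lists, 94 of 113 measured genes were tested, with 45 positive, 49 negative and 0 called. The groups did not overlap in 9.57% of the 94, beside 12.2% of all genes tested.

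**Figure D5:**
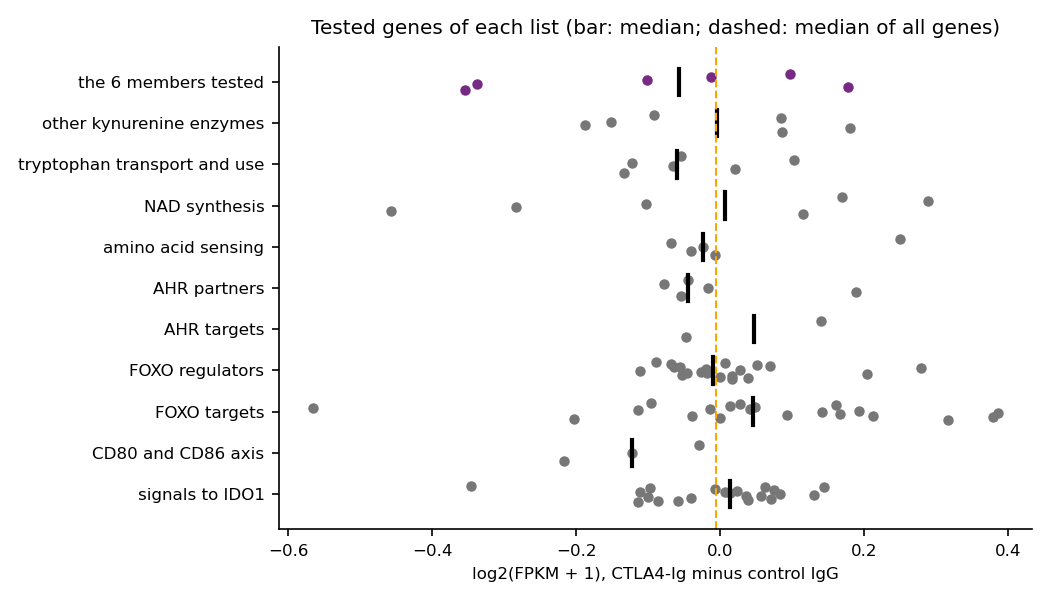
Difference of log2(FPKM + 1), CTLA4-Ig minus control IgG (x axis), for each tested gene of the members and of the 10 lists (y axis), with a bar at the median of each list and a dashed line at the median of all genes tested, -0.0063. The medians lie between -0.12 and 0.05, and the points of each list of more than 3 tested genes lie on both sides of 0.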

How the data were processed

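Per the labels' protocols, a miRNeasy kit gave total RNA and a stranded TruSeq kit the mRNA libraries. The submitters' processing notes name Cuffnorm 2.2.1, TopHat2 2.0.13, SAMtools 0.1.19, Bowtie2 2.2.3 and build mm10 (GRCm38), with no settings, annotation or strand use stated. The authors deposited FPKM values, 1 per gene name and library, scaled between libraries, with sums of 726358 to 851706. Counts are not in these files and absolute depth is unknown; the spacing of values in genes under 0.3 FPKM put the shallowest library at 0.819 of the deepest.

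Log2(FPKM + 1) was tested with limma 3.58.1 in R 4.3.3 (eBayes with trend) in genes averaging 1 FPKM or more, with Benjamini-Hochberg adjustment over all tested genes. The code was run on simulated data with independent normal spread in each gene. That run held no library like control library 1, so it cannot show how the test behaves with one. Groups follow the titles. Members and lists were chosen with earlier results of these data known. Of 114 genes in 10 pathway lists 113 were matched, 4 through an older symbol, and of 80 markers 77. Named genes are the members, Cx3cr1, Cd80 and Cd86, per list the 2 with the smallest p and the 1 with the highest mean, other list genes by role, and the 3 nearest in profile to each tested member. Some genes that the rule names, and a motif searched, are not reported here. List genes beyond that rule were chosen after their values were seen. The alternatives numbered 13. Proteins are not analysed here.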

Additional observations from a re-analysis of the deposited data

How the results depend on the processing

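No member and no list gene was called in limma under any of the 13 alternatives. Over all genes, 12 were called with no filter on low values, and 0 to 6 without 1 library, these being small RNA genes and Gm9781; the cause was not tested. Ahr, Kynu and Foxo1 have no value with a filter at 5 FPKM. The log2 difference of Kmo ran from -0.0866 to 0.341 and that of Foxo3 from -0.0317 to 0.0195 when 1 library was left out, with the turn of sign for Kmo without control library 1 and for Foxo3 without CTLA4-Ig library 2. Ahr stayed negative, at -0.394 to -0.233, Kynu at -0.531 to -0.160 and Foxo1 at -0.165 to -0.0681, and Foxo4 stayed positive, at 0.0432 to 0.159. The unadjusted p of Ahr in limma passed above 0.05 without CTLA4-Ig library 3 (0.0557), control library 2 (0.0545) or control library 3 (0.0592). Without any other library it ran from 0.0248 to 0.0448. With a pseudocount of 0.1 the difference of Ido1 was 0.531, against 0.11. Rescaling moved the median of all genes to -0.0033 (median of ratios) and -0.0106 (quantile normalization). Of 130 list medians under the alternatives, 125 moved by less than the spread between replicates. These include the medians from eBayes without trend and from the replicate block, which could not move because neither setting changes the estimates. Titles give both groups the numbers 1 to 3. The deviations of same-numbered libraries correlated at -0.154, -0.0942 and -0.0235 across genes. No positive sharing by number was seen, but 3 libraries per group cannot exclude pairing. With the replicate block in limma 0 genes were called and 619 had an unadjusted p under 0.05. The difference of Ahr stayed at -0.337, as it must where each number occurs once in both groups. The values of Ido1 are a few steps of the lowest spacing, and Ido2 and Tdo2 were listed at 0. Absolute depth is unknown, and whether it limits these genes was not tested.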
